A study of Mus musculus with 21 samples.

Results

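Mouse genes that carry a provisional name, either Gm with a number or a name ending in Rik, were followed where their level differed between embryonic stem cells (ESCs) given retinoic acid (RA) for 24 h and cells kept without RA for 24 h. Genes were chosen by these 24 h values: a gene was included when its mean reached at least 2 TPM (transcripts per 1000000) in either group and the group means of log2(TPM + 1) differed by at least 1 in size. Of 32285 genes listed, 11045 had such a name, 765 of these reached the level of 2 TPM, and 95 met the whole rule. Of the 95, 41 were higher with RA and 54 were lower (over all 13948 genes tested, 4.39% and 3.74% differed by as much). Of them, 60 were Gm genes and 35 Rik genes.

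RA is a vitamin A derivative that enters the nucleus and binds receptors of the RAR and RXR families, which sit on DNA and switch target genes on when the ligand arrives. In ESCs it drives exit from pluripotency and induces Hox genes and its own degrading enzyme, Cyp26a1. Names of the Gm and Rik kind mark gene models from annotation and from full-length cDNA collections that have not been given a name by function, and they include long non-coding RNAs, antisense RNAs and coding genes.

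Polyadenylated RNA was sequenced from 21 libraries in 7 groups of 3. The time course began with wild type ESCs at 0 h (ESC_0h), in serum with LIF, 1 µM PD0325901 and 3 µM CHIR99021 (the pair of inhibitors called 2i). Cells without LIF and 2i were taken at 12 h and 24 h (noRA_12h, noRA_24h), and cells with 2 µM RA at the same times (RA_12h, RA_24h). Whether LIF and 2i were also withdrawn from the RA cells of the time course is not stated in the labels. In a separate set, wild type cells (WT_RA_24h) and Cyp26a1 knockout cells (KO_RA_24h) spent 24 h in 2 µM RA once LIF and 2i had been taken away, and no knockout clone or ESC line is named. Aligned depth was estimated at 2.96 to 3.91 Gb a library in the time course and 2.72 to 3.24 Gb in the knockout set. In these sets 11928 to 13482 and 12408 to 12884 genes reached 1 TPM. Libraries of a group are numbered without a word on separate cultures, so p-values measure only the spread between these libraries, which may be technical.

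The pluripotency list summed to 4643 to 4768 TPM in ESC_0h, 5511 to 5596 TPM in noRA_24h and 4252 to 4671 TPM in RA_24h, and with RA at 24 h 6 of its 10 genes were lower and 1 was higher (limma, adjusted p below 0.05, where 12.5% of all genes were lower and 22.8% higher). The primitive endoderm list summed to 74.3 to 88.8 TPM in noRA_24h and 272 to 301 TPM in RA_24h, and its 10 genes were all higher with RA at 24 h. Trophoblast markers summed to 54.5 to 57.4 TPM in noRA_24h and 89.2 to 116 TPM in RA_24h, with 4 of 5 tested genes higher, and neural markers to 35.5 to 35.7 and 48.8 to 60.8 TPM, with 2 of 3 tested genes higher. Fibroblast or feeder markers summed to 15.0 to 18.1 TPM in noRA_24h and 5.05 to 6.06 TPM in RA_24h, and of the 4 of 8 genes tested, Thy1 and Dcn were lower and Col1a1 was higher. In bulk RNA, fewer cells of a type and less RNA per cell cannot be told apart, and the part of these cell types in the differences below was not tested. Of the RA pathway list, 23 of 24 genes were tested, and at 12 h 13 were higher and none was lower with RA (limma, adjusted p below 0.05, where 10.2% of all genes were higher and 7.19% lower).

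Some libraries stood apart from their group. One axis held 67.2% of the variance within groups, and its far ends were RA_24h library 2 (score 49.8, against -18.6 and -31.2 for libraries 1 and 3) and noRA_12h libraries 1 and 2 (40.2 and -35.1). When RA_24h library 2 was left out, the rule chose 100 lower genes in place of 54, of which 48 were among the 54, and 43 higher genes in place of 41, of which 38 were among the 41. RA_24h libraries 2 and 3 also shared 13 genes that were at or near 0 elsewhere, 3 of them in the set of 95, as described with the X-linked genes.

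The 95 genes lay on 20 chromosomes, with 2 to 9 genes on each. By GENCODE M21, whose coordinates on mm10 equalled those of the tables for all 95, 34 were annotated as protein coding, 33 as lincRNA (a non-coding RNA between genes), 20 as antisense, 5 as processed transcripts, 2 as non-coding RNAs of bidirectional promoters and 1 as sense intronic. Protein-coding models made up 35.8% of the 95 and 43.0% of the other 670 Gm and Rik genes at 2 TPM. The 95 had a median exonic length of 1193 bp, 3 exons and a GC content of 49.6%, and the 670 had 1677.5 bp, 4 exons and 48.9%. Another gene was overlapped by 50 of the 95, and 33 shared exon bases with it, 26 of them on the opposite strand. Whether reads were assigned by strand is not stated in the sources used here, so levels of these 33 are uncertain, most of all for the 5 that shared 53.1% to 81.2% of their exon bases (Gm48900, Gm49527, 4930566F21Rik, Gm14817 and Gm49380).

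The DNA before the start is shown in 6 stretches for 7 of the 95 genes, whose start faces another gene, lies inside a Hox gene or is annotated at a bidirectional promoter, so that the letters can be read beside the neighbours described below. CG dinucleotides, which are clustered at many promoters, are in capitals. All are from RefSeq on GRCm38.p6, 5′ to 3′ on the strand of the gene. For the pair Gm4779 and 8030474K03Rik, transcribed away from each other, the 232 bases that separate the annotated starts are printed (chrX:101794424-101794655, plus strand, 14 CG).
8030474K03Rik and Gm4779: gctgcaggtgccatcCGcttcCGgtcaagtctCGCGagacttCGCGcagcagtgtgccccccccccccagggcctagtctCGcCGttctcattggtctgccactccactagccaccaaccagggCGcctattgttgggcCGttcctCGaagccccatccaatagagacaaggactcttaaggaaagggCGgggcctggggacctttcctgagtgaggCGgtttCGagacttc
Gm15050 (chr6:52172631-52172880, plus strand, 20 CG): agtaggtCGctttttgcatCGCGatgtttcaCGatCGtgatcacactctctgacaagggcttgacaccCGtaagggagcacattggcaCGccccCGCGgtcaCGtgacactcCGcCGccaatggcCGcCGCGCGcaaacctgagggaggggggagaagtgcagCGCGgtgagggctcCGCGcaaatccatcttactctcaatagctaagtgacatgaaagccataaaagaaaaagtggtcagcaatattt
A330009N23Rik (chr15:101225187-101225436, minus strand, 5 CG): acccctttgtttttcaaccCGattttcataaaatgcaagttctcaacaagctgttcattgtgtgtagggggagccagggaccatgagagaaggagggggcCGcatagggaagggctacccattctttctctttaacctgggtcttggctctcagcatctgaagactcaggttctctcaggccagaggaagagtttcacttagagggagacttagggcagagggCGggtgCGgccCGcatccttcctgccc
3300002P13Rik (chr7:3423446-3423695, minus strand, 20 CG): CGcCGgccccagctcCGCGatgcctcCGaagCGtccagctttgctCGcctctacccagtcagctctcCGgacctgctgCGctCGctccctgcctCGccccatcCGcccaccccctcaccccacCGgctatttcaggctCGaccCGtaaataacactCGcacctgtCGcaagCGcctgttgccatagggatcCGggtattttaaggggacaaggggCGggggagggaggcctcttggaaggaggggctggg
Gm40709 (chr10:78352233-78352482, plus strand, 53 CG): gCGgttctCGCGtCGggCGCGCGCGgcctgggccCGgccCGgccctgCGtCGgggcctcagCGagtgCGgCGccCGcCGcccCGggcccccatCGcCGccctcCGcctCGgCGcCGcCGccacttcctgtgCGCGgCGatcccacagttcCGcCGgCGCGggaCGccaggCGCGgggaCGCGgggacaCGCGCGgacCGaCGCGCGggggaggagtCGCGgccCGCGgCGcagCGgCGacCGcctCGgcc
1700097N02Rik (chr17:30626906-30627155, minus strand, 10 CG): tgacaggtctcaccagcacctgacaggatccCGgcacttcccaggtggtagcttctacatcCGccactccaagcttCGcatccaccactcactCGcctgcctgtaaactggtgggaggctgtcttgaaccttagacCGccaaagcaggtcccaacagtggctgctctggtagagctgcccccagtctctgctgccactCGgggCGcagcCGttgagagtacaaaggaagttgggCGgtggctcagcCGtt
The median over the first 250 bases of all 32851 windows in the table was 6 CG, and at least 53 CG, as before Gm40709, were found in 0.0365% of windows. None of the 6 printed stretches held AGGTCA, a hexamer that RA receptors bind, on either strand. Only exact copies were sought here and below, so sites of another form are not covered. Of the 95 genes, 43 had a window of 250 bases before and 50 after a RefSeq start. AGGTCA on either strand was in 8 of their 54 windows (14.8%), against 16.3% of all windows. Some RefSeq starts lie far from those used here, at 27521 to 72198 bp for the several windows of 1700019D03Rik. Among windows with AGGTCA the distance was 7668 bp for Gm3764 and 3203 bp for Gm27204. It was 1 bp for 0610040F04Rik, 5430402E10Rik, Gm14743 and Gm14744. AGGTCA repeated in the same direction after 5 or after 2 bases of any kind was also sought. These forms contain the single hexamer. Neither was in any window of the 43 genes, and each was in 0.00913% of all windows. With only 3 of 32851 windows holding each form, its absence from 54 windows decides nothing about these genes.

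**Figure D1:**
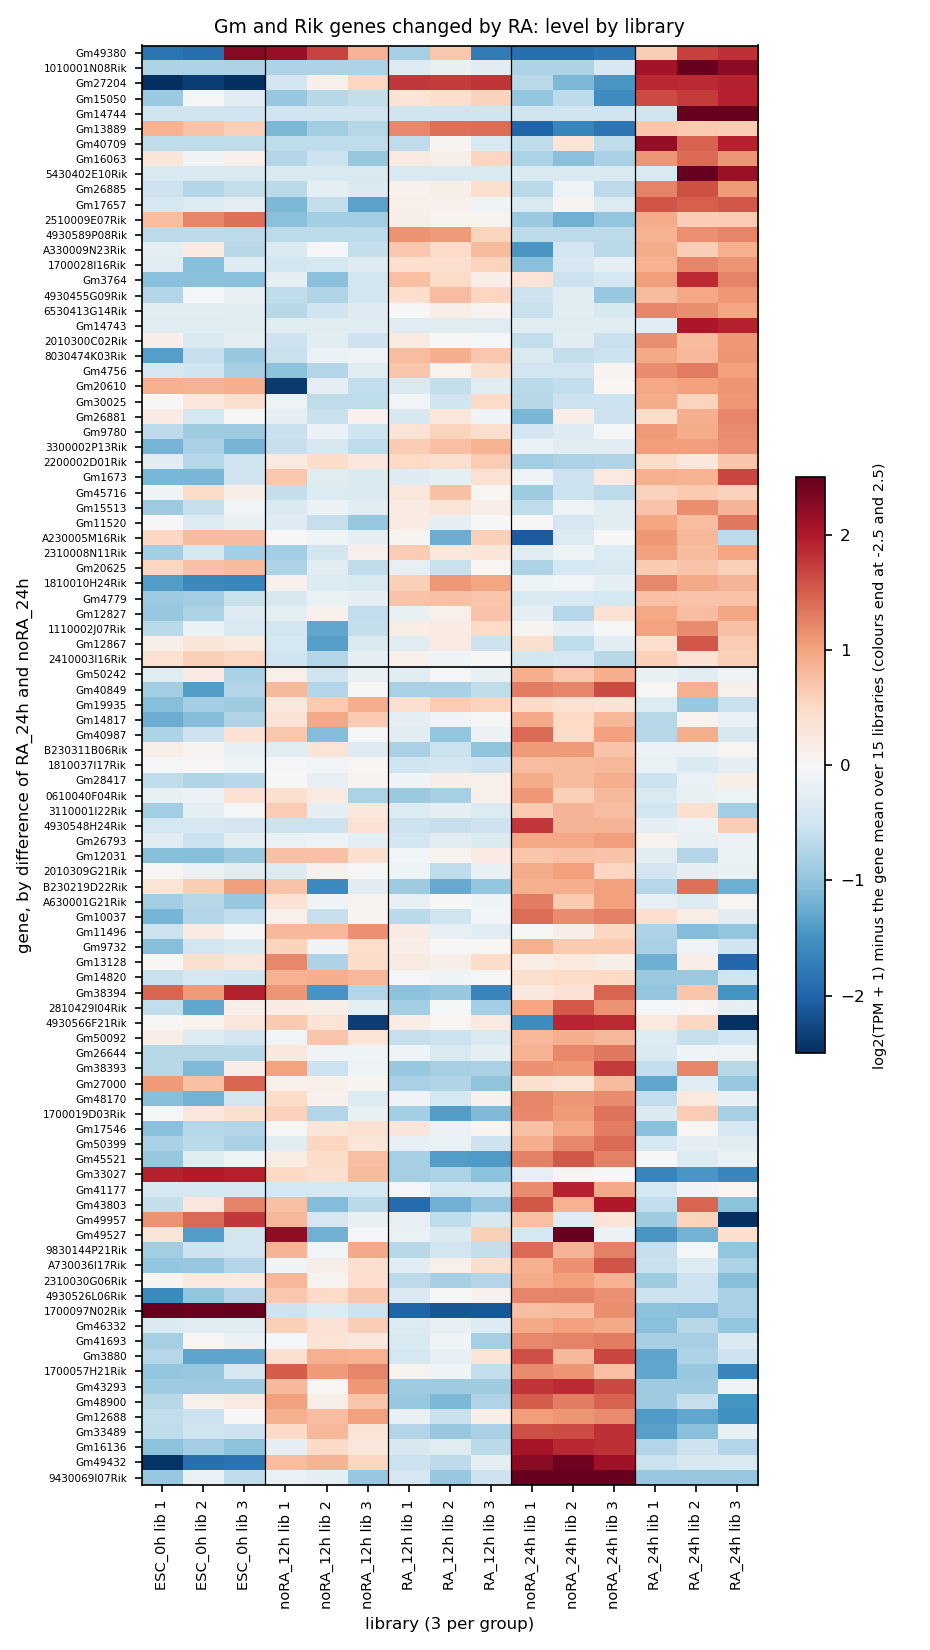
Level of the 95 genes (rows, ordered by the difference of RA_24h and noRA_24h) in the 15 time course libraries (columns), as log2(TPM + 1) minus the mean of the gene. The 41 genes above the line are mostly reddest in RA_24h and the 54 below it mostly in noRA_24h.

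Over the 5 groups, 35 of the 41 higher genes had their highest mean in RA_24h, and in 30 of the 41 RA_24h exceeded ESC_0h by at least 1 on the log2(TPM + 1) scale. Of the 54 lower genes, 44 had their highest mean in noRA_24h, and in 38 noRA_24h exceeded ESC_0h by at least 1, while in 44 RA_24h lay within 1 of ESC_0h. Libraries of RA_24h and noRA_24h did not overlap in 37 higher and 45 lower genes. The rule favours such separation, and its share over all genes was not counted. These 24 h values chose the genes and are a description: 8.12% of the 13948 genes tested differed by at least 1 in size. The highest 24 h group mean was under 5 TPM in 39 of the 95, at a median of 5.98 TPM.

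Just inside the limit lay Gm12867, 2410003I16Rik and 1110002J07Rik on the higher side (differences of 1.04, 1.04 and 1.05) and Gm50242, Gm14817 and Gm19935 on the lower (-1.0, -1.02 and -1.02). Just outside lay 2210011C24Rik, 2700033N17Rik and Gm6880 (0.99, 0.97 and 0.96) and Gm29243, Gm44206 and Gm47879 (-0.99, -0.99 and -0.98).

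The 12 h libraries, which had no part in the choice, showed how many of these differences were already present. Of the 95 genes, 92 were tested in RA_12h against noRA_12h with limma on log2(TPM + 1), adjusted over all 13948 genes. Of the 41 higher genes, 24 were also higher with RA at 12 h (58.5%, where 10.2% of all genes tested were). The 58.5% counts in the 3 higher genes that were not tested. Of the 54 lower genes, 22 were also lower with RA at 12 h (40.7%, where 7.19% were). Here and below, a rise or fall with RA is a difference from the control of the same time, not a change since ESC_0h. No gene passed the threshold in the direction opposite to 24 h. Of the 92, 85 had the same sign at both times, and the median difference was 0.78 for the higher genes, -0.63 for the lower genes and -0.0116 over all genes. The 46 genes past the threshold held 10 of the 20 antisense genes, 19 of the 33 lincRNAs and 13 of the 34 protein-coding genes. The share over all genes of each kind was not counted, so these counts do not compare the kinds. Of the 46, 33 passed without each 12 h library in turn.

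**Figure D2:**
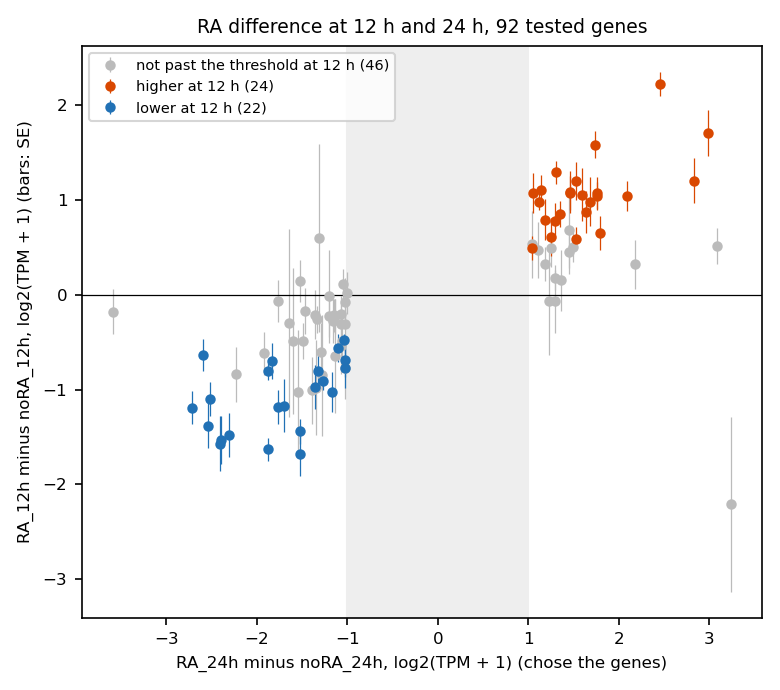
Difference of RA_12h and noRA_12h (vertical, with its limma standard error) against that of RA_24h and noRA_24h (horizontal, the values that chose the genes; the grey band was excluded by the rule), in log2(TPM + 1), for the 92 genes tested. The 24 orange and 22 blue genes passed the threshold at 12 h, and Gm49380 lies alone at the lower right.

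Among the genes higher with RA, Gm15050 is an antisense RNA inside Hoxa3, a homeobox gene of the HoxA cluster (chr6:52172881-52174059, plus strand, the stretch before it printed above). It stood at 0.534, 1.86 and 1.42 TPM in ESC_0h, 0.525, 0.805 and 0.936 in noRA_12h, 2.71, 2.97 and 3.35 in RA_12h, 0.500, 0.852 and 0 in noRA_24h, and 8.08, 8.84 and 10.3 in RA_24h. RA libraries lay above those without RA at both times. At 12 h it rose by 1.2 (SE 0.24, limma adjusted p = 0.00329, and 0.0662 with a pseudocount of 0.1). Hoxa3 itself rose from 0.264 ± 0.209 to 6.97 ± 0.778 TPM at 12 h (SD, n = 3, a difference of 2.66, SE 0.15, limma adjusted p = 5.24e-08).

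1010001N08Rik starts 503 bp from Gata6 on the opposite strand of chromosome 18. Gata6 is a transcription factor of the primitive endoderm. 1010001N08Rik was listed at 0 in all libraries of ESC_0h and noRA_12h, at 0.356, 0.497 and 0.414 TPM in RA_12h, at 0, 0 and 0.293 in noRA_24h, and at 6.24, 12.5 and 7.07 in RA_24h. Both RA groups thus lay wholly above their controls, but at 12 h its difference of 0.51 (SE 0.19) missed the threshold (limma adjusted p = 0.0883, and 0.00372 with a pseudocount of 0.1). Gata6 was already at 16.9, 16.8 and 20.1 TPM in RA_12h against 0.696, 0.888 and 0.944 in noRA_12h, and at 59.7 to 71.1 TPM in RA_24h.

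Gm27204 is a lincRNA 30649 bp from Prtg, a membrane protein of the immunoglobulin superfamily in the early embryo (chr9:72774063-72776225, minus strand). It was at 0.286, 0.883 and 0.628 TPM in ESC_0h, 6.11, 9.65 and 13.3 in noRA_12h, 32.6, 31.9 and 32.7 in RA_12h, 5.16, 3.48 and 2.58 in noRA_24h, and 35.2, 34.6 and 36.5 in RA_24h. The RA libraries were alike at both times, and the libraries without RA were higher at 12 h than at 24 h. RA raised it by 1.70 at 12 h (SE 0.24, limma adjusted p = 0.0002), and noRA_12h exceeded ESC_0h by 2.70 (SE 0.24, limma adjusted p = 8.78e-07). Prtg rose by 1.38 at 12 h (SE 0.27, limma adjusted p = 0.00281).

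**Figure D3:**
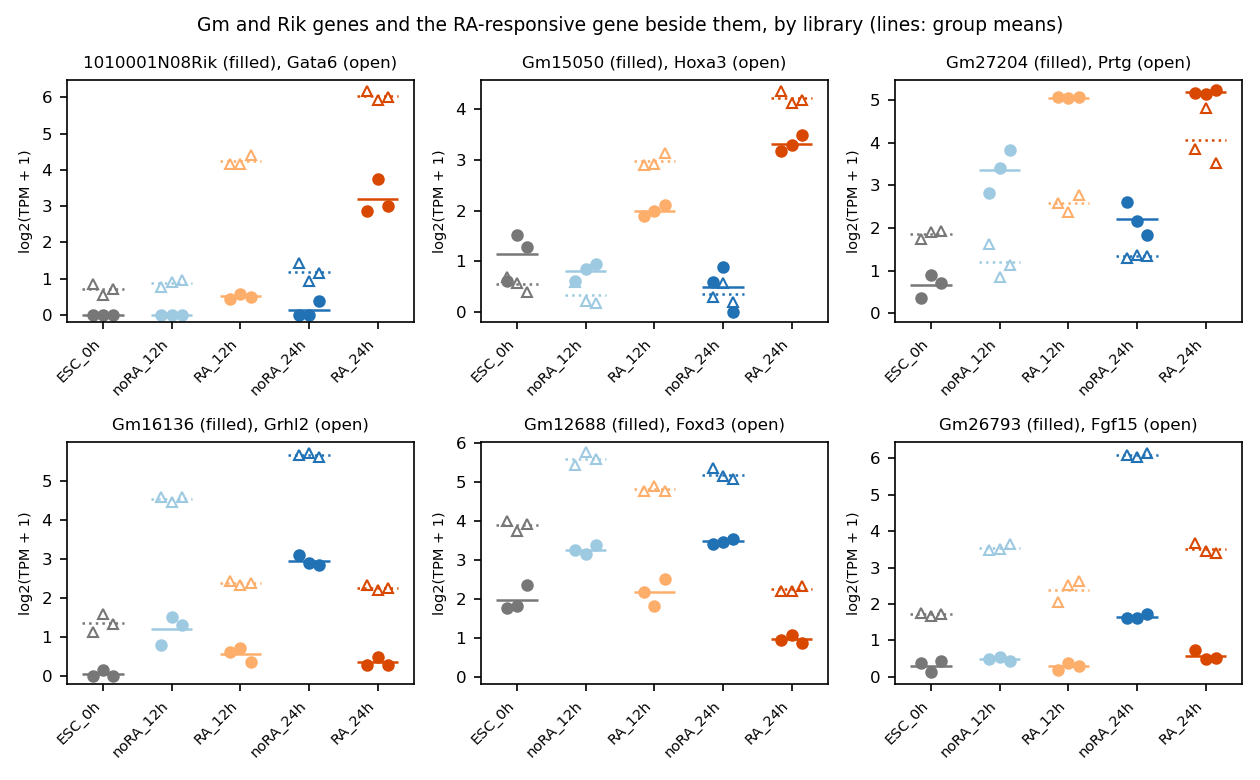
log2(TPM + 1) by library in the 5 time course groups for 6 genes of the set (filled circles) and the RA-responsive gene beside each (open triangles); lines are group means. In the upper row both genes of a pair are highest in RA_24h, and in the lower row Gm16136, Gm26793, Grhl2 and Fgf15 are highest in noRA_24h, Gm12688 is highest in noRA_24h and Foxd3 in noRA_12h.

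A pair of the genes lies around Pim1, a serine/threonine kinase gene that LIF also induces. Gm26885 overlaps Pim1 on the opposite strand (chr17:29446919-29491925) and was at 1.39, 2.28 and 1.99 TPM in noRA_12h, 3.14, 3.27 and 4.11 in RA_12h, 1.39, 2.5 and 1.42 in noRA_24h, and 8.08, 10.5 and 7.02 in RA_24h. Its 12 h rise of 0.65 (SE 0.18, limma adjusted p = 0.0272) was lost without RA_12h library 2 or 3 or noRA_12h library 1 or 3 (adjusted p = 0.0577, 0.109, 0.116 and 0.0574), and with no filter (0.0532). It shares 34.8% of its exon bases with Gm36199 on the opposite strand. Gm17657, 22530 bp from Pim1, was at 1.55, 2.66 and 1.19 TPM in noRA_12h and 5.08, 5.01 and 4.14 in RA_12h, with no overlap. It rose by 1.07 (SE 0.17, limma adjusted p = 0.000737), and Pim1 rose by 1.34 (SE 0.09, limma adjusted p = 2.24e-07).

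3300002P13Rik is a lincRNA whose start is 750 bp from that of Cacng6, a gamma subunit of voltage-gated calcium channels (chr7:3421665-3423445, minus strand). It was at 0, 0.272 and 0 TPM in ESC_0h, 0.501, 0.705 and 0.446 in noRA_12h, 2.48, 2.77 and 3.11 in RA_12h, 1.01, 0.836 and 0.864 in noRA_24h, and 3.64, 3.61 and 3.92 in RA_24h. RA and control libraries did not overlap at either time, and the 12 h rise was 1.29 (SE 0.12, limma adjusted p = 7.27e-06), beside 2.32 for Cacng6 (SE 0.13, limma adjusted p = 5.42e-08). A330009N23Rik, which starts 998 bp from Grasp, a scaffold protein gene, was at 3.12, 4.14 and 2.49 TPM in noRA_12h and 7.40, 6.36 and 8.13 in RA_12h. Its rise of 0.98 (SE 0.26, limma adjusted p = 0.02) was lost without RA_12h library 1 or 3 or noRA_12h library 1 or 3 (adjusted p = 0.0626, 0.0741, 0.0548 and 0.0827). It shares 32.9% of its exon bases with AU021063 on the opposite strand. Gm40709 starts 15 bp from Agpat3, an acyltransferase of lipid synthesis, and was at 6.12, 3.29 and 4.97 TPM in RA_24h against 0, 0.955 and 0 in noRA_24h. At 12 h neither it (limma adjusted p = 0.440) nor Agpat3 (0.377) passed the threshold.

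Other genes had no RA-responsive gene close by. 4930589P08Rik, an antisense RNA within Camta1, was listed at 0 in all 9 libraries of ESC_0h, noRA_12h and noRA_24h, at 2.43, 2.33 and 1.32 TPM in RA_12h, and at 1.90, 2.49 and 2.69 in RA_24h. It rose by 1.58 at 12 h (SE 0.14, limma adjusted p = 4.85e-06). Gm13889, a single-exon protein-coding model on chromosome 2, was at 6.34, 5.58 and 5.03 TPM in ESC_0h, 0.835, 1.2 and 1.45 in noRA_12h, 8.21, 9.37 and 9.47 in RA_12h, 0, 0.284 and 0.143 in noRA_24h, and 5.44, 5.26 and 5.11 in RA_24h. With RA it was above its ESC_0h level at 12 h and overlapped it at 24 h, and without RA it was below it at both times. At 12 h RA raised it by 2.22 (SE 0.13, limma adjusted p = 1.11e-07), and without RA it fell by 1.63 from ESC_0h (SE 0.13, limma adjusted p = 4.81e-07). 2510009E07Rik fell by 2.05 without RA (SE 0.15, limma adjusted p = 1.86e-07) and was 1.04 higher with RA than without it at 12 h (SE 0.15, limma adjusted p = 0.000322).

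Gm4779 and 8030474K03Rik are protein-coding models on X whose starts face each other across the 232 bases printed above. Gm4779 was at 12.7, 15.0 and 14.2 TPM in noRA_12h, 28.4, 29.1 and 28.2 in RA_12h, 12.9, 12.9 and 12.3 in noRA_24h, and 29.1, 28.4 and 28.6 in RA_24h. 8030474K03Rik was at 8.84, 11.9 and 12.2 TPM in noRA_12h, 23.8, 26.3 and 22.0 in RA_12h, 10.3, 8.64 and 8.96 in noRA_24h, and 27.1, 24.8 and 30.1 in RA_24h. Neither gene's libraries overlapped between RA and control at either time, and they rose by 0.98 and 1.07 at 12 h (SE 0.09 and 0.18, limma adjusted p = 7.32e-06 and 0.000785). They form 1 of 8 pairs among the 95 that lie within 100 kb of each other, and in every pair both genes had the same direction. These directions are the values that chose the genes, and no share for comparison was counted. Some pairs are not wholly separate readings. Transcripts of Gm4779 and 8030474K03Rik are 97.2% identical over 18.1% and 20.3% of their lengths, so some reads could be shared. 4930566F21Rik and 4930548H24Rik share 1320 exon bases, A730036I17Rik and 9830144P21Rik share 364, and transcripts of Gm14744 and 5430402E10Rik are 99.1% identical.

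Many of the genes lower with RA had already increased 12 h after LIF and 2i were removed. Of the 54, 27 were higher in noRA_12h than in ESC_0h (50.0%, where 22.0% of all genes tested were) and 4 were lower (7.41%, where 20.4% were). The 54 were chosen for a noRA_24h level above RA_24h, which favours genes that rise in culture without RA. The shares over all genes carry no such choice, so the excess is a description. The 41 higher genes gave 8 higher and 10 lower (19.5% and 24.4%). For 40 of the 49 genes past this threshold the call held without each library in turn. Withdrawal of LIF and 2i cannot be told apart from 12 h in culture, and noRA_12h is also the control of the 12 h RA comparison.

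Gm49432, a lincRNA 6869 bp from Pla2g10, was at 0.511, 1.24 and 1.31 TPM in ESC_0h, 13.1, 14.0 and 11 in noRA_12h, 4.70, 4.28 and 6.09 in RA_12h, 38.6, 44.1 and 35.0 in noRA_24h, and 4.70, 5.33 and 5.40 in RA_24h. No RA library overlapped its control. It increased by 2.78 from ESC_0h to noRA_12h (SE 0.17, limma adjusted p = 2.67e-08). RA_12h was below noRA_12h (a difference of -1.19, SE 0.17, limma adjusted p = 0.000243) but above ESC_0h. Gm46332, another lincRNA, was at 66.6 to 69.7 TPM in ESC_0h, 130, 110 and 132 in noRA_12h, 67.1, 74.1 and 68.5 in RA_12h, 166, 175 and 166 in noRA_24h, and 40.7, 52.3 and 43.4 in RA_24h. For this gene too RA_12h was below noRA_12h (-0.81, SE 0.09, limma adjusted p = 2.68e-05), and the RA_12h libraries overlapped those of ESC_0h. Gm43293 was listed at 0 in all ESC_0h and RA_12h libraries, at 2.27, 0.885 and 2.92 TPM in noRA_12h, 5.40, 5.75 and 4.79 in noRA_24h, and 0, 0 and 0.746 in RA_24h. At 12 h it was thus lower with RA than without it (-1.53, SE 0.25, limma adjusted p = 0.000691), with no fall from ESC_0h.

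Gm16136 starts 273 bp from Grhl2, a transcription factor of epithelia, on the opposite strand (chr15:37231793-37233309, minus strand). It was at 0, 0.114 and 0 TPM in ESC_0h, 0.738, 1.85 and 1.5 in noRA_12h, 0.538, 0.652 and 0.282 in RA_12h, 7.57, 6.53 and 6.19 in noRA_24h, and 0.229, 0.418 and 0.221 in RA_24h. The RA and control libraries were separate at both times, and the 12 h difference of -0.64 (SE 0.17, limma adjusted p = 0.0189) was lost without RA_12h library 3 or noRA_12h library 2 or 3 (adjusted p = 0.0854, 0.0645 and 0.0706). Grhl2 fell by 2.16 (SE 0.11, limma adjusted p = 1.94e-08). Gm12688 lies 1316 bp from Foxd3, a forkhead factor of pluripotent cells and neural crest (chr4:99653607-99654983, minus strand), and was at 8.55, 7.85 and 9.45 TPM in noRA_12h, 3.53, 2.49 and 4.72 in RA_12h, 9.71, 10.1 and 10.7 in noRA_24h, and 0.927, 1.10 and 0.815 in RA_24h. It fell by 1.10 at 12 h (SE 0.18, limma adjusted p = 0.000891) and Foxd3 by 0.80 (SE 0.10, limma adjusted p = 0.000113). Gm26793, which shares 27.9% of its exon bases with Fgf15, a fibroblast growth factor gene, was at 2.09, 2.07 and 2.28 TPM in noRA_24h and 0.676, 0.396 and 0.442 in RA_24h. At 12 h it reached at most 0.453 TPM and was not past the threshold (limma adjusted p = 0.271), while Fgf15 fell by 1.15 (SE 0.13, limma adjusted p = 3.87e-05).

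1700097N02Rik, annotated as a non-coding RNA of a bidirectional promoter and overlapping Dnah8 and Glo1, followed another course. It was at 152, 129 and 140 TPM in ESC_0h, 15.3, 17.5 and 15.3 in noRA_12h, 4.85, 4.33 and 4.37 in RA_12h, 38.5, 39.6 and 51.5 in noRA_24h, and 10.4, 10.3 and 12.4 in RA_24h. It fell by 3.05 from ESC_0h to noRA_12h (SE 0.12, limma adjusted p = 2.76e-10) and was lower still with RA (-1.63, SE 0.12, limma adjusted p = 5.57e-07). 9430069I07Rik was under 1 TPM in all libraries at 12 h, and at 24 h it was at 10.1, 13.4 and 9.87 TPM without RA and listed at 0 in all 3 RA libraries.

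Of the 54 lower genes, 9 had overlapping 24 h libraries, and in 8 of the 9 RA_24h library 2 was the highest of its group. In these 8 (Gm49957, Gm43803, Gm38393, 4930566F21Rik, Gm38394, Gm13128, B230219D22Rik and Gm40987) it held 5.37 to 18.5 TPM, beside 1.09 to 13.1 in library 1 and 0 to 2.37 in library 3. RA_24h library 2 is the library at the end of the axis of spread within groups, and its part in these differences was not tested.

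Position relative to RA-responsive genes was taken with 891 genes (526 higher, 365 lower) that had neither a Gm nor a Rik name, a mean of at least 2 TPM in either 24 h group, a difference of at least 1 in size and a limma adjusted p below 0.05 at 24 h, where 35.2% of all genes passed that p alone. Within 100 kb of such a gene, by the gap between gene bodies, lay 38 of the 95 (40.0%) and 103 of the other 670 (15.4%). Of the 38, 33 had the direction of the neighbour, and of the 103, 67 did. Within 10 kb the counts were 29 of 95 (30.5%) and 30 of 670 (4.48%), and 20 of the 95 overlapped the neighbour. These counts rest on the contrast that chose the genes and are given with no test. With 395 RA-responsive genes defined at 12 h instead, 20 of 95 (21.1%) and 46 of 670 (6.87%) lay within 100 kb, of which 17 and 30 had the direction of the neighbour.

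**Figure D4:**
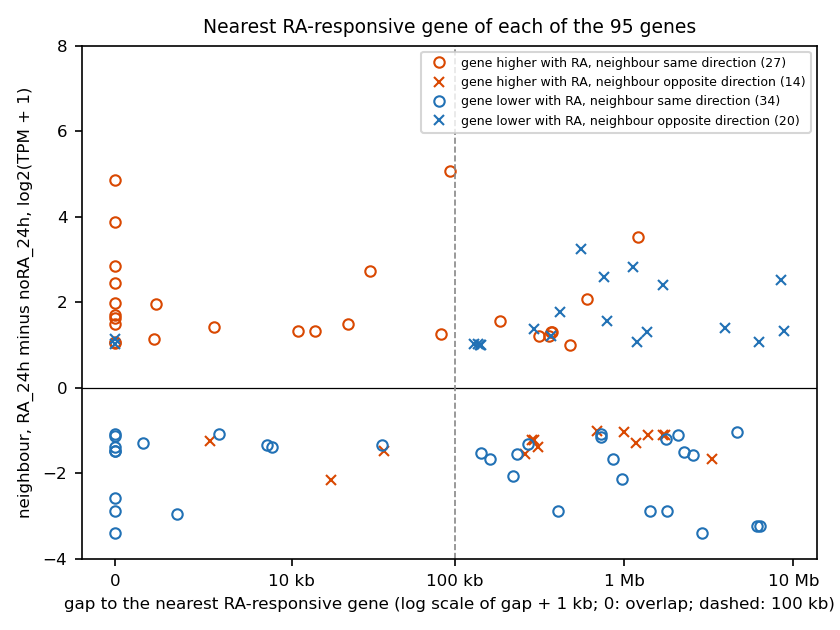
Gap from each of the 95 genes to its nearest RA-responsive gene (horizontal, log scale of the gap plus 1 kb, overlap at the left) and the difference of RA_24h and noRA_24h of that neighbour (vertical, log2(TPM + 1)). Circles mark neighbours with the same direction and crosses the opposite one; left of the dashed line at 100 kb lie 33 circles and 5 crosses.

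On opposite strands with starts at most 1 kb apart stood 6 pairs (1010001N08Rik with Gata6, Gm16136 with Grhl2, Gm26793 with Fgf15, 3300002P13Rik with Cacng6, A330009N23Rik with Grasp and Gm40709 with Agpat3). In all 6 both genes had the same direction at 24 h. The 24 h values chose both genes of a pair, and no share for other genes so placed was counted. All but 3300002P13Rik also overlap this neighbour. Exon bases are shared with it by Gm26793 (27.9%), Gm16136 (13.1%), 1010001N08Rik (3.1%) and Gm40709 (1.1%). Only the largest overlap of a gene was recorded. For A330009N23Rik that is with AU021063 (32.9%), so its sharing with Grasp is not known. The strand setting is not known, and the part of shared reads was not tested. Neighbours within 100 kb went the other way in 5 cases, for Gm43803 (Lhfp), Gm14820 (Suv39h1), 1810010H24Rik (Bptf), Gm9780 (Duxbl1) and Gm49380 (Thy1). For 1810010H24Rik, at 3.97, 2.64 and 2.53 TPM in noRA_12h and 6.01, 8.82 and 8.15 in RA_12h, the 12 h rise was 1.10 (SE 0.16, limma adjusted p = 0.000365). Bptf, a chromatin remodelling subunit gene 2638 bp away, fell by 1.17 (SE 0.32, limma adjusted p = 0.0203).

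Of the higher genes, 3 belong to a cluster of odorant-binding proteins on X, small secreted lipocalins known from nasal glands, and were read in only part of the RA_24h group. Gm14744 was listed at 0, 13.5 and 12.1 TPM in RA_24h libraries 1, 2 and 3, 5430402E10Rik at 0, 7.38 and 4.76, and Gm14743 at 0, 3.99 and 3.69. All 3 were listed at 0 in the other 12 time course libraries and in the 6 of the knockout set. Reads of these genes may be shared: transcripts of Gm14744 and 5430402E10Rik were 99.1% identical, and 2 of the 250 bases before their starts differed. They are printed with the differing bases in capitals (RefSeq, GRCm38.p6), and each holds AGGTCA once on either strand and no CG.
Gm14744 (chrX:77864508-77864757, plus strand): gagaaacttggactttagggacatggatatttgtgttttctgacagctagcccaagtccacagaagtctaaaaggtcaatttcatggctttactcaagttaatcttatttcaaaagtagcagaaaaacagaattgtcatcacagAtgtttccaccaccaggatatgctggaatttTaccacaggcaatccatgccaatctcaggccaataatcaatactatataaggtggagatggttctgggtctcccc
5430402E10Rik (chrX:77925063-77925312, minus strand): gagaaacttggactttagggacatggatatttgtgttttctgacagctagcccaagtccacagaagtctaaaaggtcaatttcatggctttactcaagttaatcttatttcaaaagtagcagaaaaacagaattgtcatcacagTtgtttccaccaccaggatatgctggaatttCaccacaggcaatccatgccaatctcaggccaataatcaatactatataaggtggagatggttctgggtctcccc
In all, 13 genes were read in RA_24h libraries 2 and 3 in this way, the others being Obp1a, Obp1b, Obp2a, Obp2b, Reg3g, Bpifa1, Lcn3, Lcn11, Wfdc18 and Cyp2a5, which are known from secretory epithelia, nasal glands or liver. No other pair of libraries within a group had such a gene. The part of RNA from other cells in these values was not tested, and without the 3 genes the higher genes number 38.

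**Figure D5:**
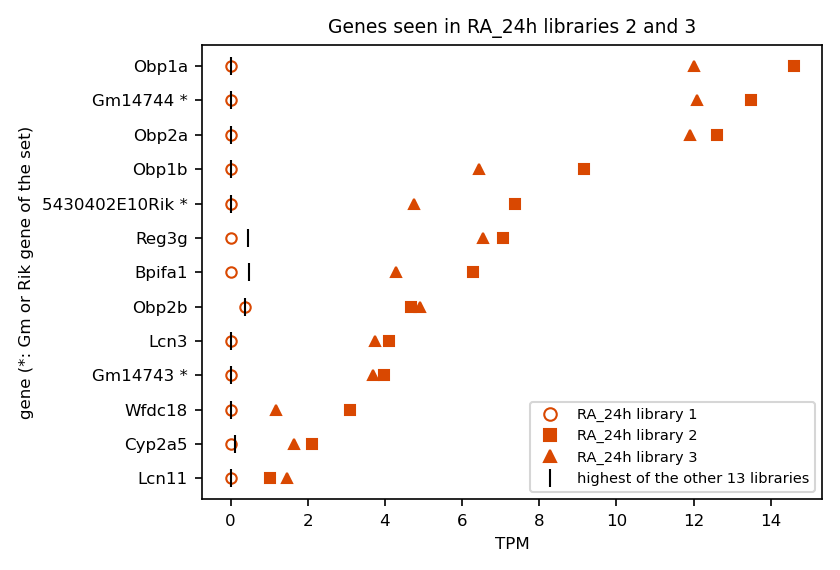
TPM of the 13 genes read in RA_24h libraries 2 and 3 (filled marks), with RA_24h library 1 (open circle) and the highest of the other 13 libraries (bar). Gm14744, 5430402E10Rik and Gm14743 (asterisks) stand at 3.69 to 13.5 TPM in libraries 2 and 3 and at 0 in the others.

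Transcripts of 9 of the 95 genes had a copy of at least 95% identity over at least 80% of their length in another gene, so that reads could be split between them. They include Gm9780, identical to Plac9a, Gm27000, 99.9% identical to the maternally expressed non-coding RNA Meg3, and Gm13128, which matches Pramef17.

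The knockout set compared cells with and without Cyp26a1, the enzyme that clears RA. Cyp26a1 itself was at 585, 606 and 592 TPM in WT_RA_24h and at 4.62, 4.03 and 4.93 TPM in KO_RA_24h (a difference of -6.76, SE 0.07, limma adjusted p = 2.22e-07). A symbol matched for 41 of the 95 genes, and 31 were tested; the other 54 were not analysed here. In the knockout 3 were higher and 2 were lower, where 9.99% of 12848 genes passed the threshold, 3.34% higher and 6.65% lower. Levels are not compared with those of the time course, whose tables used another annotation.

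Gm13889 was at 3.93, 4.86 and 3.85 TPM in WT_RA_24h and 9.97, 9.93 and 8.83 in KO_RA_24h. 1810010H24Rik was at 3.28, 3.12 and 3.43 TPM in WT_RA_24h and 7.91, 8.13 and 8.85 in KO_RA_24h. Neither overlapped between genotypes, and they rose by 1.02 and 1.12 (SE 0.12 and 0.10, limma adjusted p = 0.00518 and 0.00225), which held without each library in turn. Both were also among the genes raised by RA at 12 h. Gm19935, one of the lower genes, was at 0.915, 1.26 and 1.69 TPM in WT_RA_24h and 2.77, 3.04 and 2.44 in KO_RA_24h (0.72, SE 0.16, limma adjusted p = 0.0360). This call was lost without KO_RA_24h library 1 or 2 or any WT_RA_24h library (adjusted p = 0.0633 to 0.131), and with no filter (0.0556).

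The 2 genes lower in the knockout were both among those higher with RA. Gm1673, a protein-coding model 10971 bp from Nat8l, was at 4.57, 5.19 and 3.24 TPM in WT_RA_24h and 2.02, 1.11 and 1.60 in KO_RA_24h (-1.05, SE 0.20, limma adjusted p = 0.0240). 2010300C02Rik was at 4.16, 4.55 and 3.87 TPM in WT_RA_24h and 2.06, 2.47 and 1.95 in KO_RA_24h (-0.72, SE 0.12, limma adjusted p = 0.0162). Groups did not overlap for either gene. Without WT_RA_24h library 1 or 2 neither passed, without KO_RA_24h library 1 or 2 or WT_RA_24h library 3 only 1 did, and without KO_RA_24h library 3 there were 5 lower genes. Gm15050, at 15.4, 11.7 and 11.4 TPM in WT_RA_24h and 7.05, 8.59 and 8.82 in KO_RA_24h, was not past the threshold (-0.59, SE 0.15, limma adjusted p = 0.0527).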

How the data were processed

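Each library had 1 table of gene abundances. Per the submitters' processing notes, HISAT2 aligned the reads to mm10 and StringTie quantified them; versions, parameters and strand setting are not stated there. TPM values were deposited as the authors scaled them, to one common sum per library, per the file headers. FPKM values were deposited after scaling by the authors for length and depth, per the file headers, and the deposited coverage values (signal) are mean read depths per base. No read counts were used. Rows of a gene were summed.

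The test was limma 3.58.1 (R 4.3.3; lmFit, contrasts.fit and eBayes with trend) on log2(TPM + 1), for genes that reached 1 TPM in 3 or more libraries of their set. The 15 time course libraries shared 1 model and the 6 knockout set libraries another. The threshold was a Benjamini-Hochberg adjusted p below 0.05 over all genes. Because of the pseudocount of 1, differences understate the TPM ratios of low genes. Scripts were tested on simulated data. Depth came from the ratio of coverage to FPKM. The ratio used was that of 20.0% to 22.6% of genes in the time course libraries. In the knockout set it was that of 63.0% to 63.5%, so the time course depths are less certain. Annotation was GENCODE M21, near-identical transcripts were sought with BLAST 2.17.0, and sequences came from RefSeq (GRCm38.p6). Tables and figures used Python 3.11.15, pandas 2.3.3, numpy 2.4.6 and matplotlib 3.10.9.

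The genes and lists were chosen with earlier results of these data known. Genes named are the 12 highest and 12 lowest at 24 h, the 5 highest and lowest past the threshold in each other comparison, up to 10 nearest an RA-responsive gene, and the 3 on each side of the limit; not all of them are described. Genes described beyond these (Gm4779, 8030474K03Rik, Gm14743 and those listed by overlap, identity or opposite neighbours) were chosen after their values were seen. Same-numbered libraries deviated together in all 3 pairs of the knockout set (r = 0.189 to 0.536). In the time course 7 of 30 pairs had r over 0.1 (-0.837 to 0.415). The labels state no pairing, and 3 libraries a group are too few to establish it. The p-values above therefore use no replicate term, and counts with a replicate block are in the closing section. Other settings are listed with their effect in the closing section.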

Additional observations from a re-analysis of the deposited data

Results flagged for a closer look

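Gm49380 moved in opposite directions at 12 h and 24 h. It was at 15.8, 10.9 and 5.72 TPM in noRA_12h and 1.09, 4.89 and 0.106 in RA_12h, a difference of -2.21 (SE 0.92, limma adjusted p = 0.128). At 24 h it was at 0, 0 and 0.0567 TPM without RA and 4.68, 11.1 and 12.0 with RA. Every RA library lay below its control at 12 h and above it at 24 h, and the difference between the times was not tested. In ESC_0h it was at 0.0438, 0 and 16.8 TPM, and 69.5% of its exon bases are shared with Rnf26 on the same strand.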

How the results depend on the processing

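With at least 5 TPM as the mean over a set only 30 genes of the time course were tested, and 7 were higher and 9 lower with RA at 12 h, 13 higher and 5 lower in noRA_12h than in ESC_0h, and 0 lower in the knockout. With only the groups compared, 23 were higher in noRA_12h than in ESC_0h. The rule itself chose 91 lower genes with a pseudocount of 0.1, 19 higher with a floor of 5 TPM, and 21 higher and 27 lower with FPKM. Within 500 kb of an RA-responsive gene lay 61 genes, and 20 within 100 kb of one defined at 12 h. Leaving out 1 library gave 19 to 22 higher and 18 to 21 lower at 12 h, 32 to 36 and 11 to 15 in noRA_12h, 2 to 4 and 0 to 5 in the knockout, and 41 to 45 and 48 to 100 by the rule.

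The replicate block gave 24 higher and 22 lower at 12 h, 33 and 12 in noRA_12h, and 3 and 2 in the knockout, and changed no count by over 1.5 times. The block with a GC content and length correction (splines with 4 degrees of freedom) gave 5 lower in the knockout. That correction alone turned the split of all genes at 12 h from 1428 higher and 1003 lower to 1427 and 1799, and median-of-ratios scaling that of the knockout from 429 and 855 to 522 and 522. For named genes, 565 of the 12 h values under other settings kept their side of the threshold, 26 lost it, 10 gained it and 0 reversed; the causes were not tested. Leaving out the 3 genes read in 2 libraries, chosen after seeing the data, gave 38 higher. Low levels limit the rest: 39 of the 95 genes were under 5 TPM in both 24 h groups.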
